A study of Mus musculus with 4 samples.

Results

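The genes described here carry the prefix H2, the name of the mouse major histocompatibility complex (MHC), or are among 9 partners and regulators of antigen presentation. Of the partners, Tap1, Tap2 and Tapbp lie beside H2 genes on chromosome 17. The members were chosen by name. They are the 42 listed symbols that start with H2-, and B2m, Tap1, Tap2, Tapbp, Cd74, Ciita, Nlrc5, Ifi30 and Cd1d1, which makes 51 of 21889 listed genes. RNA was sequenced from 4 acute myeloid leukaemia lines from BXH-2 mice, which develop retrovirus-induced myeloid leukaemia. B117H is highly resistant to cytarabine (Ara-C), with a labelled IC50 of about 160 µg/ml, and B117P is its sensitive parent at about 150 ng/ml. B140H is highly resistant at about 60 µg/ml, and B140P is its sensitive parent at about 110 ng/ml. The labels give exposure to rising Ara-C concentrations for all 4 lines, parents included, and passage in ASM medium without the drug. Each line was sequenced as 1 library, and whether a resistant line is a single clone is not given in the sources used here.

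MHC class I molecules sit on nearly all nucleated cells and show peptides from inside the cell to CD8 T cells. Each is a heavy chain paired with beta-2-microglobulin, loaded with peptides that the TAP transporter carries into the endoplasmic reticulum. Class II molecules show peptides from endosomes to CD4 T cells and are made mainly by B cells, dendritic cells and activated macrophages. The coactivator CIITA switches on class II genes, and its relative NLRC5 acts on class I genes. The class II-like dimer H2-DM, also called H2-M, loads peptides onto class II molecules, and H2-O restrains H2-DM.

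The values are FPKM as deposited, that is fragments scaled to transcript length and to the mapped total of the library, so levels of different genes can be set side by side. A gene counts as expressed when its mean over the 4 libraries is at least 1 FPKM, which holds for 10066 genes and for 29 of the 51 members. Ratios are log2 of FPKM + 1 in the resistant line over its parent, and a gene is called past the rule when it differs at least 2-fold on that scale. The addition of 1 understates the change of genes at low levels. With 1 library a line there is no replicate error and no test within a lineage. The spacing of low FPKM values gave between 19160000 and 24540000 fragments a library. The 95% intervals below are exact Clopper-Pearson intervals on fragments estimated at that depth, and they cover counting error only.

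The labelled cell type was read against marker genes first. Mpo, the myeloperoxidase of granulocyte precursors, was at 473.3 FPKM in B117H and 1450.2 FPKM in B117P, and at 0.913 FPKM in B140H and 10.4 FPKM in B140P. Other neutrophil markers were high in the B140 lines too. Ctsg had 270.4 FPKM in B140H and 337.2 FPKM in B140P, and Prtn3 had 82 and 68.1 FPKM. Elane, like Mpo, was low there, at 0.154 FPKM in B140H and 0.385 FPKM in B140P. RNA of early B cell genes was present in both lineages. Vpreb1, which encodes part of the pre-B cell receptor, had 81.3 FPKM in B117H and 8.32 FPKM in B117P, and 14.1 FPKM in B140H and 54.8 FPKM in B140P. Cd79b, a signalling chain of the B cell receptor, had 0.546 FPKM in B117H and 1.67 FPKM in B117P, and 64.2 FPKM in B140H and 44.5 FPKM in B140P. Ebf1, a transcription factor of B cell progenitors, was at 0.023 FPKM in B117H and 0 in B117P, and at 23.7 FPKM in B140H and 24.7 FPKM in B140P. Vpreb1 was thus highest in B117H, and Cd79b and Ebf1 were high in both B140 lines. Ms4a1, a gene of mature B cells, stayed under 1 FPKM in all 4 lines.

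In all 4 lines the class I genes were strongly expressed and the class II genes were close to the limit of detection. The summed level of the 29 class I heavy chain genes was 989 FPKM in B117H, 860 FPKM in B117P, 911 FPKM in B140H and 624 FPKM in B140P. The 5 class II genes together reached 1.03 FPKM in B117H, 0.870 FPKM in B117P, 0.773 FPKM in B140H and 0.838 FPKM in B140P. All 15 class I genes that passed the filter stood above every class II gene in every line. The summed level of the 5 H2-O and H2-DM genes lay between those of the classes, at 24.8, 19.2, 27.1 and 18.4 FPKM in the same order of lines.

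**Figure D1:**
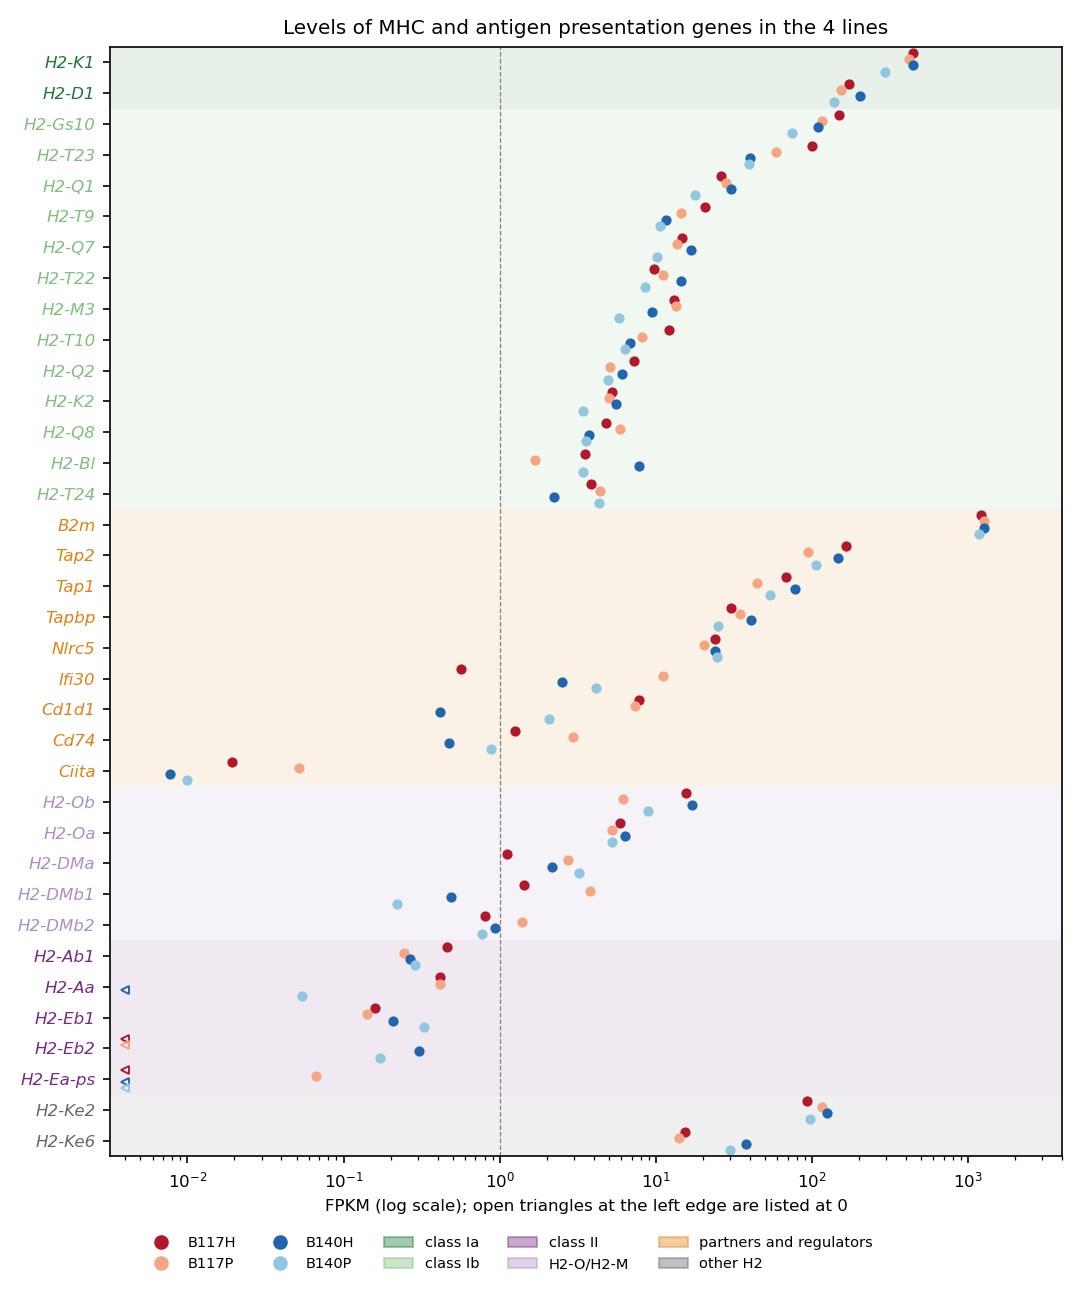
FPKM on a log scale for the members at a mean of at least 1 FPKM and for all members of the class II, H2-O/H2-M and partner groups, with 1 point per line and each resistant line above its parent. The class I genes and B2m sit to the right of the dashed line at 1 FPKM in all 4 lines, whereas the 5 class II genes and Ciita sit to its left.

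The classical class I genes H2-K1 and H2-D1, whose products present peptides to CD8 T cells, carried most of the heavy chain RNA. H2-K1, on chromosome 17 from 34132957 to 34137278 in mm9, had 445 FPKM in B117H and 419.7 FPKM in B117P, and 442.6 FPKM in B140H and 292.2 FPKM in B140P. H2-D1 had 173.6 FPKM in B117H and 154.5 FPKM in B117P, and 202.7 FPKM in B140H and 138.6 FPKM in B140P. Both genes were highest in the resistant lines, and B140P was the lowest of the 4 lines for both. Together they made up 62.5% of the class I heavy chain FPKM in B117H, 66.8% in B117P, 70.8% in B140H and 69.0% in B140P. The values come from alignment to mm9, and the H2 haplotype of the lines is not given in the sources used here, so allele differences may move this split and the levels of single class I genes.

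Neither classical gene passed the 2-fold rule. In lineage B140 the log2 ratios were 0.60 for H2-K1 and 0.55 for H2-D1, and in lineage B117 they were 0.08 and 0.17. B140H had 151% of the H2-K1 level of B140P, with a counting interval of 148% to 155%, and B117H had 106% of that of B117P, with an interval of 104% to 108%. The median of all expressed genes was itself 0.11 in lineage B140 and -0.03 in lineage B117. Set against that median, the ratio of H2-K1 was 0.48 in lineage B140 and 0.11 in lineage B117.

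B2m, which encodes the beta-2-microglobulin light chain, was the highest member and nearly level across the lines. It had 1207 FPKM in B117H and 1262 FPKM in B117P, and 1272 FPKM in B140H and 1184 FPKM in B140P, with log2 ratios of -0.06 for B117H over B117P and 0.10 for B140H over B140P, the second of which turned to -0.01 when libraries were centred. It ranked 71st among expressed genes in B117H, 63rd in B117P, 89th in B140H and 82nd in B140P. B2m RNA exceeded the summed heavy chains 1.22-fold in B117H and 1.47-fold in B117P, and 1.4-fold in B140H and 1.9-fold in B140P. The excess was thus lower in each resistant line than in its parent, while B2m differed little.

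Of the 27 nonclassical class I (class Ib) genes, 13 passed the filter, and none of the 13 passed the 2-fold rule in either lineage. Another 11, all of the H2-M type (H2-M1, H2-M2, H2-M5, H2-M9, H2-M11 and the 6 H2-M10 genes), were listed at 0 in every library. H2-Q6, H2-Q10 and H2-T3 were at 0.507 FPKM or less in every line. The highest of the expressed ones was H2-Gs10, a synonym of H2-Q4 in the RefSeq table, with 148.5 FPKM in B117H and 115.6 FPKM in B117P, and 109.7 FPKM in B140H and 74.7 FPKM in B140P. H2-M3, which presents formylated peptides, had 13.1 FPKM in B117H and 13.5 FPKM in B117P, and 9.50 FPKM in B140H and 5.81 FPKM in B140P.

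The class Ib genes differed in which lineage showed the larger ratio. H2-T23, which encodes Qa-1, the ligand of the NKG2A receptor of natural killer cells, had 100.4 FPKM in B117H and 58.9 FPKM in B117P, but 40.2 FPKM in B140H and 39.3 FPKM in B140P. Its log2 ratios were 0.76 and 0.03, the second of which turned to -0.08 when libraries were centred. H2-Bl, a transcribed pseudogene in the RefSeq table, had 3.52 FPKM in B117H and 1.68 FPKM in B117P, and 7.82 FPKM in B140H and 3.43 FPKM in B140P. H2-Bl had log2 ratios of 0.75 and 0.99 and lay just inside the 2-fold rule in lineage B140. H2-T24 went the other way in lineage B140, with 2.23 FPKM in B140H and 4.33 FPKM in B140P, a log2 ratio of -0.72, while it was at 3.84 FPKM in B117H and 4.41 FPKM in B117P. Whether the lineages differ was not tested, since each ratio rests on 1 library a line.

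The 15 expressed class I genes had log2 ratios with a median of 0.55 for B140H over B140P and of 0.10 for B117H over B117P. The same medians over all 10066 expressed genes were 0.11 and -0.03. Of the 15, 8 lay above the all-gene median in both lineages (H2-K1, H2-D1, H2-K2, H2-Bl, H2-Gs10, H2-Q2, H2-Q7 and H2-T9), against 21.8% of all expressed genes. These genes do not count as independent, because their RNAs are alike. Of the 50-base words of the H2-T22 transcript, 44.7% also occur in transcripts of other genes, as do 42.9% for H2-T10, 34.9% for H2-Q7, 28.8% for H2-T23, 14.3% for H2-D1 and 8.79% for H2-K1. H2-Bl shared none. H2-D1 and H2-Q1 are listed with the same span, as are H2-T23 and H2-T24, and H2-T22 and H2-T9, so how reads were divided within each pair is uncertain.

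The genes that supply peptides to class I were expressed in every line, and the TAP transporter genes were higher in both resistant lines without passing the 2-fold rule. Tap2, which encodes a subunit of the transporter, had 165.8 FPKM in B117H and 93.9 FPKM in B117P, and 146.7 FPKM in B140H and 105.8 FPKM in B140P. Tap1, which encodes the other subunit, had 68.0 FPKM in B117H and 44.8 FPKM in B117P, and 77.8 FPKM in B140H and 53.7 FPKM in B140P. For both genes each resistant line was above both parents. The log2 ratios were 0.81 and 0.47 for Tap2 and 0.59 and 0.53 for Tap1. The counting interval of the Tap1 level was 145% to 159% of the parent in B117H and 139% to 152% in B140H.

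Psmb9, which encodes a catalytic subunit of the immunoproteasome, starts beside Tap1 on the opposite strand and had similar ratios. It had 188.5 FPKM in B117H and 116.9 FPKM in B117P, and 218 FPKM in B140H and 146.2 FPKM in B140P, with log2 ratios of 0.68 and 0.57. Psmb8, another immunoproteasome subunit gene, had 369.8 FPKM in B117H and 296 FPKM in B117P, and 468 FPKM in B140H and 308.2 FPKM in B140P, with log2 ratios of 0.32 and 0.60. The 225 bases between the start sites of Psmb9 and Tap1 are shown because both genes are read outward from them. They lie at chr17:34187331-34187555 in GRCm38.p6 and are given on the Tap1 strand, from RefSeq, with the Y box (ATTGG or, on the other strand, CCAAT) in capitals.
Psmb9-Tap1: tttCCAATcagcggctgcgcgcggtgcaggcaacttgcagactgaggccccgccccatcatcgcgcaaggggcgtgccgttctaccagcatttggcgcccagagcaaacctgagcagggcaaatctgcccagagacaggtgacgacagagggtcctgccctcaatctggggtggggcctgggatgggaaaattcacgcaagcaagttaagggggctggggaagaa
The stretch holds 1 Y box, close to the start site of Psmb9.

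Among the 15 genes of the class I peptide supply list, which adds the other immunoproteasome, aminopeptidase and chaperone genes, all were expressed and none passed the 2-fold rule in either lineage. The median of their log2 ratios was -0.08 for B117H over B117P and 0.08 for B140H over B140P, close to the medians of all expressed genes. Tapbp, which encodes tapasin, the bridge between TAP and the heavy chain, had 30.4 FPKM in B117H and 34.4 FPKM in B117P, and 40.6 FPKM in B140H and 24.9 FPKM in B140P. Tapbp was therefore lower than its parent in B117H and higher in B140H.

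Nlrc5, the class I coactivator gene, was level across the lines and did not pass the rule. It had 24 FPKM in B117H and 20.5 FPKM in B117P, and 23.8 FPKM in B140H and 24.8 FPKM in B140P. The list of 16 interferon signalling genes held 15 expressed ones. In B117H 3 of them fell, namely Irf8, Ifngr2 and Ifnar2, and in B140H Irf8 rose, against 3.21% of all expressed genes lower in B117H and 2.31% higher in B140H. The call of Ifnar2 was lost when libraries were centred (-0.98) and under a common total (-0.96), and that of Irf8 in B117H, at -1.04, under a common total (-0.99). Ifngr2, a chain of the interferon-gamma receptor, had 9.51 FPKM in B117H and 21.9 FPKM in B117P, and 14.5 FPKM in B140H and 10.9 FPKM in B140P. Ifnar2, a chain of the type I interferon receptor, had 28.6 FPKM in B117H and 58.3 FPKM in B117P, and 45.9 FPKM in B140H and 27.0 FPKM in B140P. Irf1, which acts on class I promoters, was at 15.3 FPKM in B117H and 15.7 FPKM in B117P, and at 10.5 FPKM in B140H and 12.7 FPKM in B140P.

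Class II genes were near the limit of detection, and so was Ciita, the gene of their coactivator. Ciita was at 0.0194 FPKM in B117H and 0.0519 FPKM in B117P, and at 0.00778 FPKM in B140H and 0.0100 FPKM in B140P, which corresponds to 2, 7, 1 and 1 estimated fragments. The level of 3 fragments on its transcript is between 0.0204 and 0.0261 FPKM, so only B117P stood above it. H2-Ab1, the beta chain of the I-A molecule, had the highest single value of the class, 0.457 FPKM in B117H, against 0.245 FPKM in B117P, and had 0.265 FPKM in B140H and 0.286 FPKM in B140P. H2-Aa, the alpha chain of I-A, was at 0.413 FPKM in B117H and 0.417 FPKM in B117P, was listed at 0 in B140H and was at 0.0539 FPKM in B140P. H2-Eb2, another beta chain gene, was listed at 0 in both B117 lines and had 0.302 FPKM in B140H and 0.171 FPKM in B140P, or 25 and 11 estimated fragments. None of the 5 class II genes passed the filter. A difference between a resistant line and its parent was not detectable at this depth, as the counting interval of each class II ratio that could be formed spanned the parental level.

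Cd74, which encodes the invariant chain that escorts class II molecules, was low as well. It had 1.26 FPKM in B117H and 2.95 FPKM in B117P, and 0.477 FPKM in B140H and 0.879 FPKM in B140P. It was lower in each resistant line, with log2 ratios of -0.81 and -0.35, neither past the rule. B117H had 42.6% of the parental level, with a counting interval of 28.3% to 64.2%, while the interval in lineage B140, 27.9% to 107%, spanned the parental level. The other factors of the class II enhancer complex were present, with Rfx5 at 5.20 FPKM in B117H and 5.30 FPKM in B117P, and 6.79 FPKM in B140H and 7.62 FPKM in B140P. Rfxap was between 5.73 and 7.33 FPKM and Rfxank between 3.72 and 4.65 FPKM in the 4 lines. None of the 13 genes on the enhancer factor list, which includes Rfxap and Rfxank, passed the rule in either lineage.

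H2-Ob, the beta chain of H2-O, had the largest log2 ratio above 0 among the members in lineage B117 and the second largest, after H2-Bl, in lineage B140. It had 15.6 FPKM in B117H and 6.13 FPKM in B117P, and 17.1 FPKM in B140H and 8.93 FPKM in B140P. Each resistant line was above both parents. The gene lies on chromosome 17 from 34375850 to 34382853 in mm9. It rose in B117H, with a log2 ratio of 1.22, while its ratio of 0.87 in lineage B140 did not pass the rule. B117H had 254% of the parental level, with a counting interval of 224% to 288%, and B140H had 192%, with an interval of 172% to 214%. Its partner H2-Oa, the alpha chain, was at 5.86 FPKM in B117H and 5.21 FPKM in B117P, and at 6.37 FPKM in B140H and 5.23 FPKM in B140P. The ratio of H2-Ob to H2-Oa was 2.65 in B117H and 1.18 in B117P, and 2.69 in B140H and 1.71 in B140P.

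None of the H2-DM genes passed the 2-fold rule, and all 3 were lower than the parent in B117H. H2-DMa, the alpha chain, had 1.11 FPKM in B117H and 2.74 FPKM in B117P, and 2.15 FPKM in B140H and 3.20 FPKM in B140P. H2-DMb1, a beta chain, had 1.43 FPKM in B117H and 3.77 FPKM in B117P, and 0.486 FPKM in B140H and 0.219 FPKM in B140P. H2-DMa was thus lower in both resistant lines, while H2-DMb1 was lower in B117H and higher in B140H. In B117H the levels were 40.7% and 38.0% of the parent, and the counting intervals, 28.3% to 58.4% and 25.5% to 54.5%, lay below the parental level. In B140H they were 67.1% and 222% of the parent, with intervals of 51.4% to 87.9% and 83.2% to 685%. H2-DMb2, another beta chain gene, had 0.811 FPKM in B117H and 1.39 FPKM in B117P, and 0.939 FPKM in B140H and 0.774 FPKM in B140P, and its mean of 0.979 FPKM missed the filter. H2-DMb1 shares 27.2% of its 50-base words with H2-DMb2. The summed H2-DM level was 3.36 FPKM in B117H and 7.90 FPKM in B117P, and 3.57 FPKM in B140H and 4.19 FPKM in B140P, so the ratio of H2-Ob to it was 4.63 in B117H and 0.775 in B117P, and 4.79 in B140H and 2.13 in B140P.

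Promoters of class II genes carry an X box and a Y box at a fixed distance, and 4 promoter windows are shown because their genes share that arrangement but not their level. RefSeq windows of GRCm38.p6, from 250 bases before to 50 after a start site, were held for 35 of the 51 members. Both strands were searched for an X-box core (G, any base, AAC, any 3 bases, TG) followed on the same strand by the Y box, ATTGG, with 10 to 40 bases between. The arrangement was found for 4 of the 8 class II, H2-O and H2-DM genes with a window, for 0 of the other 27 members, and in 0.359% of all 32851 windows. The stretches below run 5′ to 3′ on the strand of the gene, the plus strand of chromosome 17 in each case, with the X-box core and the Y box in capitals.
H2-Ob (chr17:34238810-34238860): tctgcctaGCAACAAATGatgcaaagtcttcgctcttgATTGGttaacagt
H2-DMb1 (chr17:34153089-34153142): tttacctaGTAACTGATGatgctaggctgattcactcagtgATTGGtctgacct
H2-Eb1 (chr17:34305768-34305820): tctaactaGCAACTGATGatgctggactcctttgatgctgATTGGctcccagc
H2-Eb2 (chr17:34325535-34325587): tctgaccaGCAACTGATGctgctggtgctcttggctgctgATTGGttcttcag
The boxes were 20 bases apart in H2-Ob, 23 in H2-DMb1 and 22 in H2-Eb1 and H2-Eb2. The X-box core began 87 bases before the start site in H2-Ob, 94 in H2-DMb1, 91 in H2-Eb1 and 132 in H2-Eb2.

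With this arrangement in common, H2-Ob was between 6.13 and 17.1 FPKM in the 4 lines, and H2-DMb1 between 0.219 and 3.77 FPKM. H2-Eb1, the beta chain of the I-E molecule, was between 0.141 and 0.328 FPKM and H2-Eb2 was at 0.302 FPKM or less. A match is a description of the letters and does not show binding. The lack of a match does not show that a motif is absent. The class II gene H2-Aa, for one, had a Y box but no match to the X-box core. The X-box core alone was in 11.6% of all windows and the Y box alone in 37.4%. An interferon response element, searched as GAAA, any 2 bases and GAAA, was in 3.44% of all windows and in those of 3 members, B2m, H2-T23 and H2-T22, of the 35. They are shown because B2m and H2-T23 are among the most abundant members, in capitals where the element lies, which in the H2-T genes is read on the other strand.
B2m (chr2:122147536-122147569): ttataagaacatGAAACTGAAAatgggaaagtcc
H2-T23 (chr17:36032804-36032837, minus strand): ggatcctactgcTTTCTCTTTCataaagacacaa
H2-T22 (chr17:36042912-36042945, minus strand): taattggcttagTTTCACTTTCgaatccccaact
H2-T23, with the element, had log2 ratios of 0.76 and 0.03, and H2-T22 had -0.17 and 0.70.

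**Figure D2:**
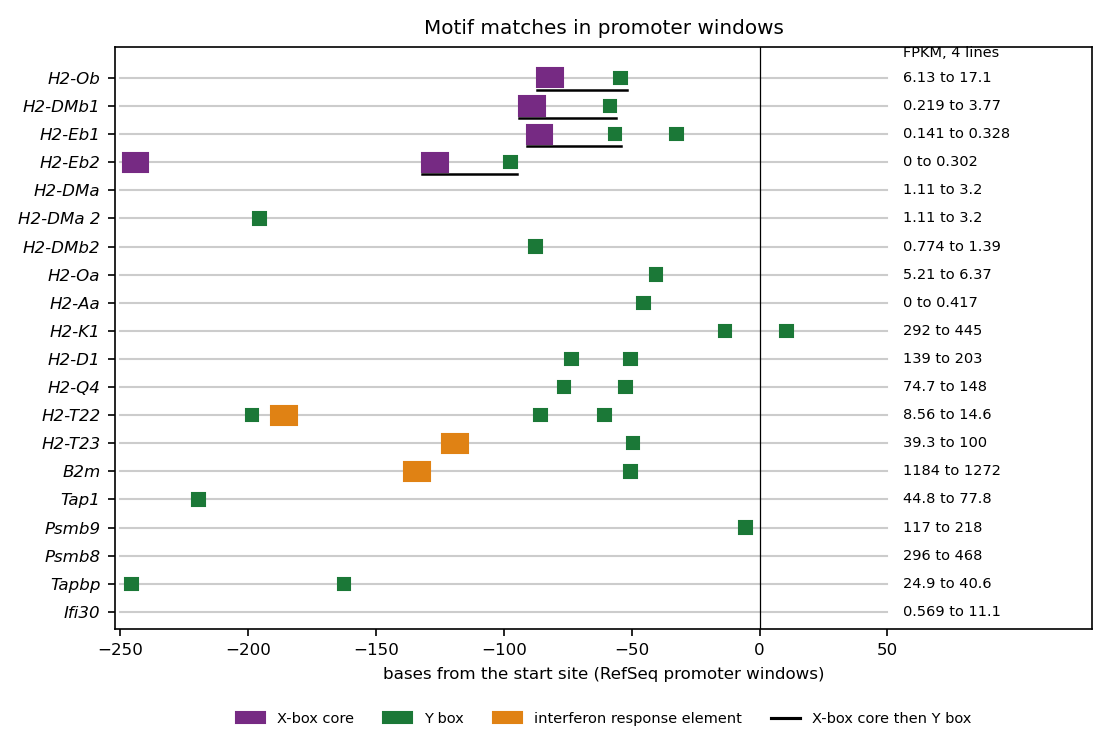
Motif matches on either strand in RefSeq promoter windows, against bases from the start site, with the lowest and highest FPKM of the 4 lines at the right. H2-DMa has 2 windows, the second marked 2, and H2-K1 is drawn for its first window. The X-box core followed by the Y box, underlined, occurs in H2-Ob, H2-DMb1, H2-Eb1 and H2-Eb2.

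Ifi30, which encodes a thiol reductase (GILT) that unfolds antigens in lysosomes, showed the largest change of any member. It had 0.569 FPKM in B117H and 11.1 FPKM in B117P, and 2.52 FPKM in B140H and 4.16 FPKM in B140P. It fell in B117H, with a log2 ratio of -2.95, to 5.11% of the parental level, with a counting interval of 2.54% to 9.38%. In lineage B140 its log2 ratio was -0.55 and did not pass the rule, and B140H had 60.6% of the parental level, with an interval of 42.9% to 86.5%. The gene lies on chromosome 8 from 73286672 to 73290562 in mm9, outside the MHC.

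Cd1d1, which encodes the class I-like molecule that presents lipids to natural killer T cells, fell in B140H. It had 0.417 FPKM in B140H and 2.06 FPKM in B140P, and 7.75 FPKM in B117H and 7.36 FPKM in B117P. Its log2 ratio was -1.11 in B140H over B140P, at 20.2% of the parental level with a counting interval of 11.7% to 33.5%, and 0.07 in lineage B117. Cd1d1 shares 25.8% of its 50-base words with Cd1d2, which was listed at 0 in all 4 libraries.

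H2-Ob, Ifi30 and Cd1d1 were the only members past the 2-fold rule. The 29 expressed members include H2-Ke2 and H2-Ke6, which carry the prefix but encode no MHC chain. In lineage B117, 1 of the 29 expressed members rose, 1 fell and 27 did not pass, against 4.62% of all expressed genes past the rule, 1.41% higher and 3.21% lower. In lineage B140, 0 rose, 1 fell and 28 did not pass, against 3.94% of all expressed genes, 2.31% higher and 1.63% lower. The shares of members are near those backgrounds. No member passed the rule in both lineages.

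**Figure D3:**
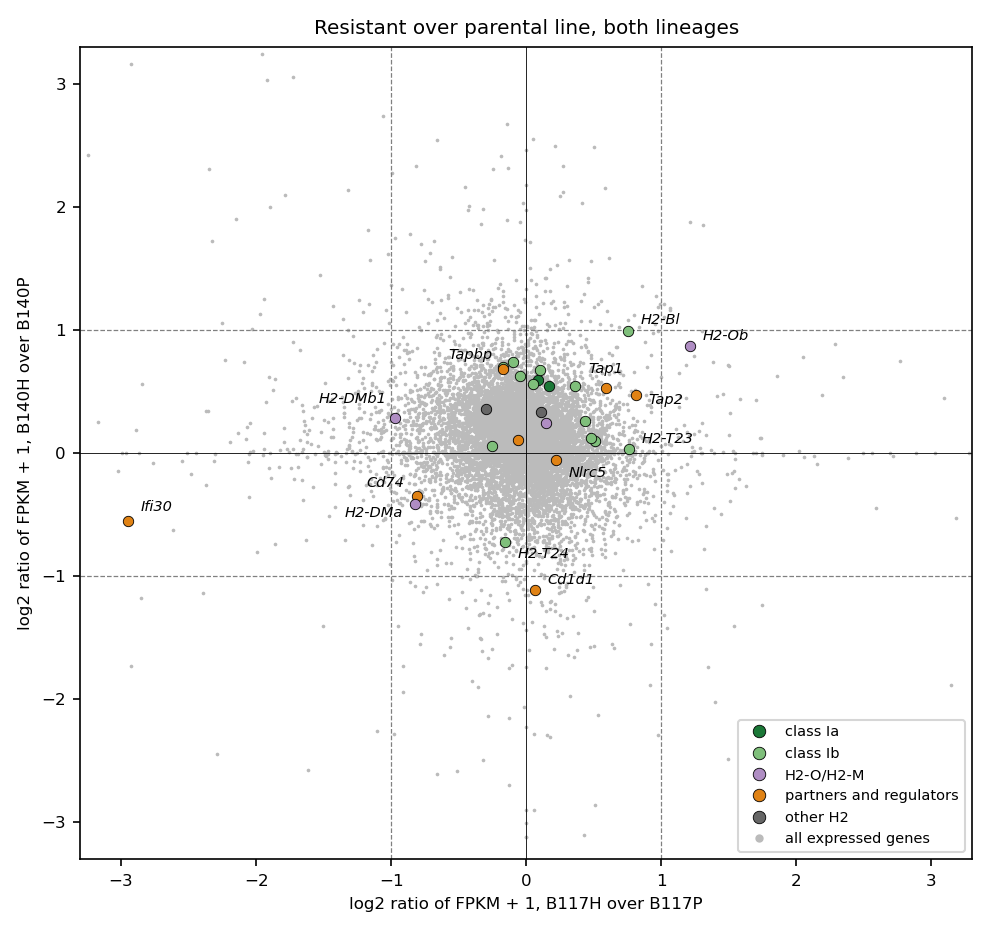
Log2 ratio of FPKM + 1 in B117H over B117P on the horizontal axis and in B140H over B140P on the vertical axis, for the 29 expressed members (large points) and all expressed genes (grey), of which 66 lie outside the axes. Dashed lines mark 2-fold, and only H2-Ob, Ifi30 and Cd1d1 lie beyond them among the members.

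**Figure D4:**
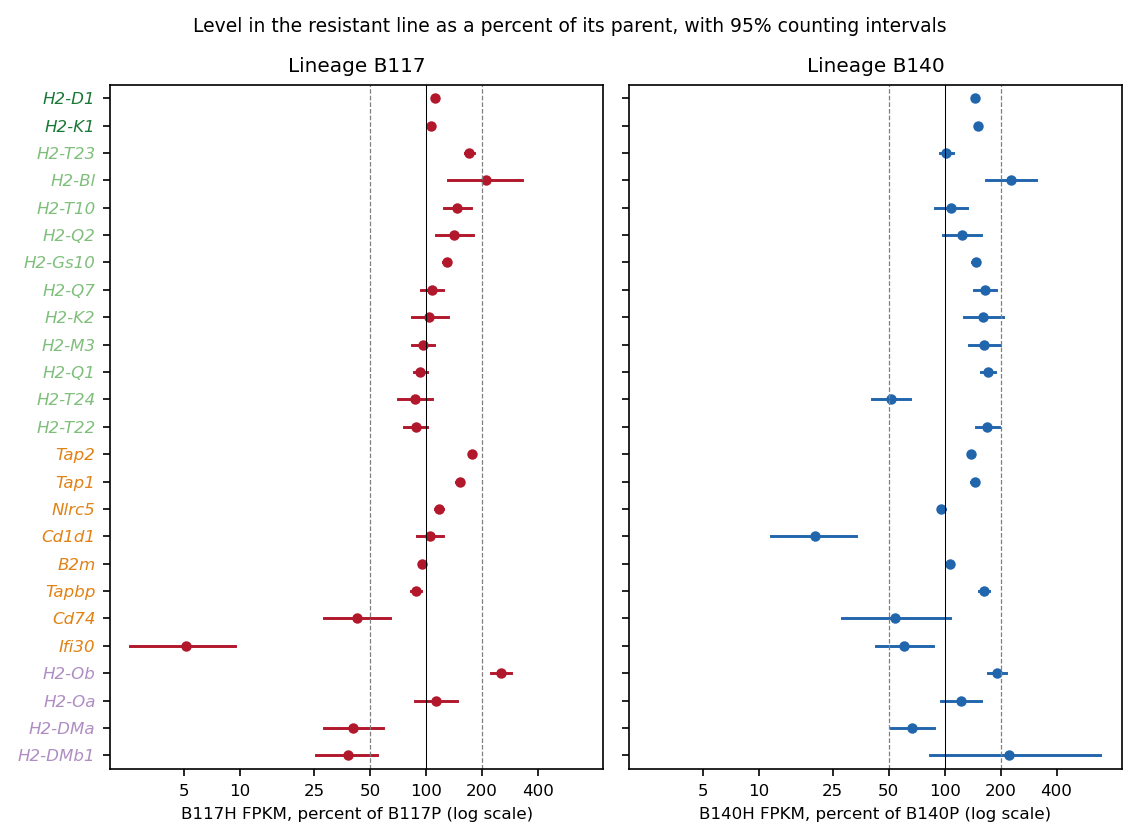
FPKM of each resistant line as a percent of its parent on a log scale, with bars for the 95% counting interval. Shown are the expressed class I, partner and H2-O/H2-M genes with a transcript length. Dashed lines mark 50% and 200%. Without the added 1 FPKM, H2-Bl lies beyond 200% in both lineages, and H2-DMa, H2-DMb1 and Cd74 lie under 50% in lineage B117. H2-DMb1 lies beyond 200% in lineage B140, where its interval spans the parental level.

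Genes of the class II route outside the MHC included changes in opposite directions. Of 9 listed genes, 7 were expressed, and in B117H 1 fell, while in B140H 1 rose and 1 fell. Over all expressed genes 1.41% rose and 3.21% fell in B117H, and 2.31% rose and 1.63% fell in B140H. Ctsz, a lysosomal cathepsin, had 54.6 FPKM in B117H and 127.9 FPKM in B117P, but 176.8 FPKM in B140H and 79.3 FPKM in B140P. March8, a ubiquitin ligase that acts on membrane proteins, fell in B140H, with 0.187 FPKM in B140H and 1.96 FPKM in B140P. Of 10 co-stimulatory and checkpoint genes, 6, among them Cd80, Cd86 and Cd40, stayed under 1 FPKM in every line. Of all 21889 listed genes, 11823 had a mean under 1 FPKM. Cd48 of the same list was between 40.9 and 76.3 FPKM and Icosl between 2.90 and 4.20 FPKM. Tnfsf9, which encodes the 4-1BB ligand, fell in B117H, with 2.78 FPKM in B117H and 7.31 FPKM in B117P. Among other class I-like genes, Fcgrt, which encodes the neonatal Fc receptor, rose in B140H, with 3.31 FPKM in B140H and 0.188 FPKM in B140P.

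Markers of other cell types moved in the same comparisons, and in bulk RNA fewer cells of a type and less RNA per cell cannot be told apart. Among 10 neutrophil markers, with a summed level of 1099 FPKM in B117H and 2802 FPKM in B117P, 3 of 8 expressed ones fell in B117H beside Ifi30. Among 11 macrophage markers, with sums of 53.0 and 97.5 FPKM in those lines, 1 fell and 1 rose, and C1qb and Marco were at 0 in every library. Among 11 dendritic cell markers, 8 were under 1 FPKM in every line and Itgax rose in B117H, with 75.3 FPKM against 10.6 FPKM in B117P. Their sum was 125.3 FPKM in B117H and 45.7 FPKM in B117P, and 358.8 FPKM in B140H and 267.9 FPKM in B140P. Most of the sum in lineage B140 was Flt3, with 347.2 FPKM in B140H and 249.3 FPKM in B140P. Flt3 had 48.0 FPKM in B117H and 32.9 FPKM in B117P. Among 10 B cell markers the sum was 86.0 FPKM in B117H and 10.95 FPKM in B117P, and 129 FPKM in B140H and 170.6 FPKM in B140P. Most of the sum in lineage B117 was Vpreb1, with 81.3 FPKM in B117H and 8.32 FPKM in B117P. Of 6 expressed B cell markers, 2 rose in B117H, and 1 rose and 2 fell in B140H. In lineage B140, the macrophage sum was 71.1 FPKM in B140H and 31.3 FPKM in B140P and the neutrophil sum 378 and 428 FPKM, beside Cd1d1. There 1 macrophage marker rose, Cd68, with 64.1 FPKM in B140H and 25.3 FPKM in B140P. Of the neutrophil markers Mmp8 rose, with 14.5 FPKM in B140H and 1.65 FPKM in B140P, and Mpo fell. The expressed genes of the T cell, natural killer cell and stromal lists, 1, 1 and 2 in number, all rose in B117H, the line in which H2-Ob rose and Ifi30 fell. Lck, Pdgfrb and Fn1 met the filter only through their B117H level, so their shared direction was largely set by the filter. Blnk of the B cell list and Emr1 of the macrophage list, which also rose in B117H, met the filter in the same way. Lck had 5.99 FPKM in B117H and 1.88 FPKM in B117P, Klrd1 10.4 and 3.33 FPKM, Pdgfrb 7.54 and 1.55 FPKM, and Fn1 5.69 and 1.85 FPKM in the same order. The summed stromal level was 13.4 FPKM in B117H and 3.52 FPKM in B117P, and under 1 FPKM in both B140 lines. The other 3 stromal markers, the collagen genes Col1a1, Col1a2 and Col3a1, were at 0.0584 FPKM or less in every line. The T cell sum was 6.01 FPKM in B117H and 1.965 FPKM in B117P, and the natural killer cell sum 10.4 FPKM in B117H and 3.74 FPKM in B117P. Cd3e, Cd3g, Cd4, Ncr1 and Gzma were at 0 in every library. Beside these counts, 1.41% of all expressed genes rose and 3.21% fell in B117H, and 2.31% rose and 1.63% fell in B140H. The part of these markers in the changes was not tested.

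No member was called when both lineages entered 1 fit of resistant against sensitive lines. A limma fit with the lineage as a block, on 1 residual degree of freedom, called 0 of 10066 genes at an adjusted p of 0.05, which is 0% of them, and gave an unadjusted p under 0.05 for 218, or 2.17%. Of the 29 members, 4 were among those 218, namely H2-Ob, H2-Bl, Ifi30 and Tap2. H2-Ob had a mean log2 ratio of 1.04 with a standard error of 0.24, higher in 2 of 2 lineages, with an unadjusted limma p of 0.00509 and an adjusted p of 0.9995, which was 0.9995 to 1 under the alternatives. Tap2 had a mean log2 ratio of 0.64 with a standard error of 0.25, higher in 2 of 2 lineages, with the same adjusted limma p. For Tap1 it was 0.56 with a standard error of 0.24 and an unadjusted limma p of 0.0567.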

How the data were processed

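Per the submitters' processing notes, the authors used TopHat2 2.0.4 and Cuffdiff on the mm9 build, and the deposited values are FPKM per gene with a listed span. The annotation used for counting, strand handling and the treatment of multiply mapped reads are not given in the sources used here. No reads were realigned. Starts were read as counted from 0 and 1 was added, since 6285 listed spans then equal those in the RefSeq table against 434 otherwise. The members, lists and rules were chosen with earlier results of these data known. Any expressed member could be named, and the partners and regulators always, by a fixed rule. It allowed a listed pathway gene when past 2-fold or among Rfx5, Rfxap, Rfxank, Irf1, Psmb8 and Psmb9. Marker genes, Cd1d2 and some co-stimulatory genes were named as well. Some genes that this rule covers are not reported here.

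Depth came from the spacing of low FPKM values among 761 single-transcript genes of GENCODE M21. Between 56 and 77 values a library were low enough to be used. Of those values, 72.5% to 83.9% lay within 0.15 of a whole fragment. The unit came from the same values, so these shares are no independent check. Member fragments use the longest coding transcript. Shared words of 50 bases were taken from a single transcript of each member and searched in all GENCODE M21 transcripts. H2-Gs10 was placed with class Ib as H2-Q4. The resistant lines pair with their parents as the series text states. Values of log2(FPKM + 1) entered limma 3.58.1 under R 4.3.3, with a trend and Benjamini-Hochberg adjustment over all 10066 expressed genes. The limma fit and the depth estimate were tested on simulated data. Other steps ran in scipy 1.17.1, pandas 2.3.3 and numpy 2.4.6 on Python 3.11.15, with figures by matplotlib 3.10.9.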

Additional observations from a re-analysis of the deposited data

Results flagged for a closer look

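Ctsz and Irf8, both from lists of the wider pathway, passed the 2-fold rule in opposite directions in the lineages on the deposited values. Under a common total neither passed it in both, as Ctsz was at 0.99 in B140H over B140P and Irf8 at -0.99 in B117H over B117P. Ctsz, a lysosomal cathepsin, had a log2 ratio of -1.21 in B117H over B117P and of 1.15 in B140H over B140P, a difference of -2.36. Irf8, a transcription factor of monocyte, dendritic and B cell development, had 57.2 FPKM in B117H and 118.6 FPKM in B117P, and 199.8 FPKM in B140H and 88.5 FPKM in B140P. Its log2 ratios were -1.04 and 1.17, a difference of -2.21. The differences were not tested, since a term for them leaves no residual degrees of freedom with 1 library a line.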

How the results depend on the processing

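Leaving each library out in turn, which needs the fit without the lineage block, limma called between 0 and 6 genes, and the 6 came without B140P. Without the replicate block, which here is the lineage, limma called 0 genes, as with it. Among genes averaging at least 5 FPKM it called 4. No member was called under any limma setting, and the adjusted p of H2-Ob ranged from 0.9995 to 1. A lone library was there assumed to vary like the other group.

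With a pseudocount of 0.1, 2 members rose and 4 fell in B117H, as H2-Bl joined H2-Ob, and Cd74, H2-DMa and H2-DMb1 joined Ifi30; 1 member, H2-Bl, rose in B140H. Over all genes 225 then rose in B117H and 317 fell in B140H. With a minimum mean FPKM of 5, which removes Ifi30 and Cd1d1, 0 members fell in either lineage, 76 genes rose in B117H and 85 fell in B140H, and the H2-O/H2-M median in lineage B117 was 0.68, from H2-Oa and H2-Ob alone, against -0.34. Under a 4-fold rule 0 members rose in B117H, Ifi30 alone fell, and 0 fell in B140H; over all genes 40 rose and 67 fell in B117H, and 54 rose and 41 fell in B140H. Without the filter the same members were past the rule. Centring the libraries moved all genes by 0.03 and -0.11 in lineages B117 and B140 and made the split over all genes in lineage B140 173 higher and 199 lower, against 233 and 164. A common total without small RNA genes made it 161 and 197. Under both scalings the class I median stayed above 0. In lineage B117 it was 0.13 when centred and 0.15 under the common total, against 0.10 as deposited. In lineage B140 it was 0.44 and 0.39, against 0.55 as deposited. The ratios of H2-K1, H2-D1, Tap1, Tap2, Psmb8 and Psmb9 stayed above 0 as well. Leaving out H2-Gs10 or class I genes that share over 10% of their 50-base words were alternatives chosen after seeing the data; they gave class I medians of 0.09 and 0.08 in lineage B117 and of 0.55 and 0.60 in lineage B140. The ratios of B2m, H2-Q8, H2-T10 and H2-T23 in lineage B140 were above 0 as deposited and below 0 under both scalings, and that of H2-T9 was below 0 under the common total. Depth limits the class II genes and Ciita, at 25 fragments or fewer in each library.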
